A study of Mus musculus with 8 samples.

Results

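Tnk1 and its relatives among the non-receptor tyrosine kinases were followed in the mouse ileum after induction of a Tnk1 transgene. The 30 genes were taken by name from the array's annotation, and 45 of the 55681 probes carry one of these names. Of the 30 kinases, 17 have 1 probe, 11 have 2 and 2 have 3. Non-receptor tyrosine kinases are enzymes inside the cell that add phosphate to tyrosines of other proteins, usually downstream of receptors that lack a kinase of their own. TNK1 and TNK2 form the ACK family. The other kinases are placed here in the families ABL, FES, SRC, CSK, FRK, FAK, JAK, SYK and TEC. Many of them are known from immune cells, which are abundant in the intestinal wall, and others from adhesion and cytokine signalling in the epithelium.

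All animals were female mice of the strain Rosa26rtTA/+, Hprt Myc-Tnk1tg, per the labels. The strain carries rtTA, an activator that needs doxycycline, and a Myc-tagged Tnk1 transgene. The doxycycline group received 50 µg per g of body weight by intraperitoneal injection in 100 µl, and the control group received 100 µl of 0.9% NaCl. Tissue was taken after 24 h. There were 4 arrays per group. The source name and title of the saline samples call them wild type, although their strain label is the transgenic one. No group received doxycycline without the transgene, so the drug and the transgene cannot be told apart. If the saline animals were wild type, carrying the rtTA and Tnk1 alleles could not be told apart from treatment either. Ages, pooling and the cells in which the transgene is switched on are not given in the sources used here. Whether each array holds RNA of a different animal is not stated, so a p-value covers only the scatter among these arrays, which may be technical.

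All 8 arrays lie on 1 slide, with doxycycline in the first row and saline in the second, so row and treatment cannot be told apart. Between 54.75% and 56.95% of probes were well above background on the doxycycline arrays, against 39.63% to 43.09% on the saline arrays. The median difference over all 28626 probes kept for the test was 0.04 on the log2 scale. The number of arrays limits the precision. Of 8 ileal enterocyte markers, 7 were well above background on all 8 arrays, among them Slc10a2, the bile acid transporter (6.32 ± 0.50 and 5.80 ± 0.28, SD over 4 arrays of each group). The exception, Apoa4, averaged 4.46 ± 0.55 with doxycycline and 0.65 ± 3.31 with saline, and 1 saline array did not detect it. Levels here are log2 intensity minus the array's 75th percentile, and a difference is doxycycline minus saline on that scale. The label "called" means an adjusted p under 0.05 in limma with Benjamini-Hochberg adjustment over all kept probes. Levels of different probes cannot be set against each other.

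Tnk1 is read at sites 1424 bases apart in its transcript, and the sequences are shown because these sites gave opposite signs. The probe nearer the 5′ end starts at transcript position 1087 and lies at chr11:69668633-69668692 (mm9, minus strand). The probe nearer the 3′ end starts at position 2511 and lies at chr11:69664714-69664773, and its first 30 of 60 bases are printed. The array annotation used here does not give exons or untranslated regions. It does not say which of these stretches the transgene contains.
Tnk1 5′-side probe: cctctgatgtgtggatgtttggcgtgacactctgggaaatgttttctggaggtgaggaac
Tnk1 3′-side probe: tcggaactgtcattagctacttccctaaac
The longest run of bases that either probe shares with a probe of another kinase in the set is 8. Against all other probes of the array it is 17 for the 5′-side probe and 14 for the 3′-side probe.

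On the 5′-side probe, doxycycline replicates 1 to 4 read 0.34, 0.81, 0.82 and 0.60, and saline replicates 1 to 4 read -1.93, -2.02, -1.91 and -2.74. Every doxycycline array lay above every saline array. The probe rose 6.92-fold (limma adjusted p = 4.16e-04), with a 95% interval from 4.86 to 9.85, and its exact permutation p was 0.0286, the smallest that 4 against 4 allows. Of the saline arrays, 3 read it well above background. With normexp background correction, the difference was 1.98 in place of 2.79, and the call remained.

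On the 3′-side probe, doxycycline replicates 1 to 4 read 2.42, 2.19, 2.02 and 1.89, and saline replicates 1 to 4 read 2.57, 2.69, 2.83 and 2.23. The groups overlapped, and the difference of -0.45 (SE 0.189, limma adjusted p = 0.143) did not pass. The 5′-side level minus the 3′-side level averaged -1.48 ± 0.40 on the doxycycline arrays and -4.73 ± 0.19 on the saline arrays (SD over 4). This within-array quantity differed by 3.24 between the groups (exact two-sided permutation p = 0.0286 over 70 arrangements). A test on 1 probe a gene, the brightest, gave Tnk1 as -0.45 (limma adjusted p = 0.136), whereas the mean of both probes gave 1.17 (limma adjusted p = 0.00502).

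**Figure D1:**
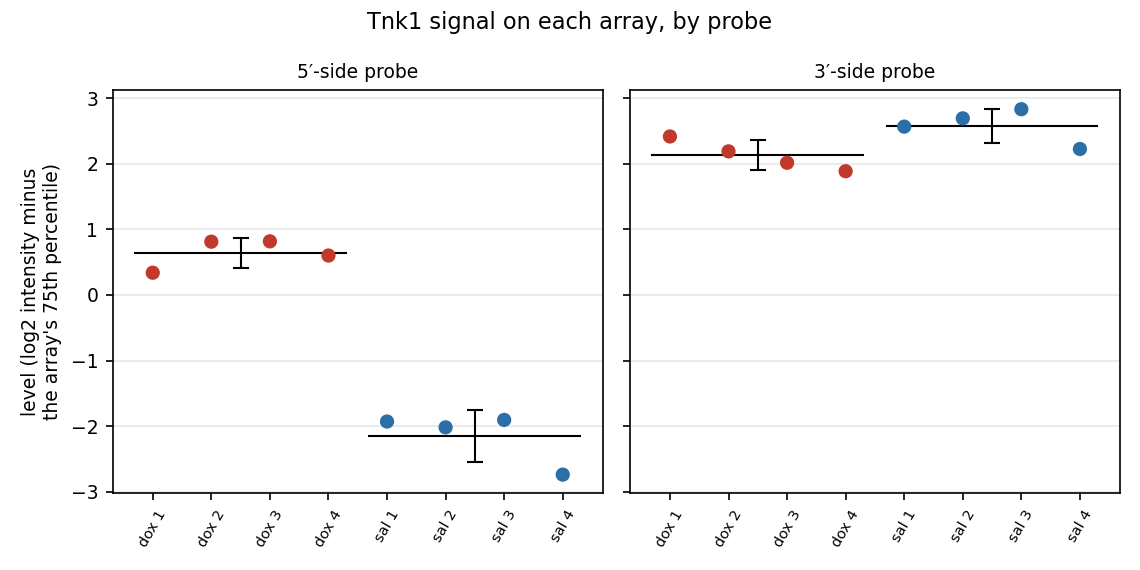
Level of each Tnk1 probe (log2 intensity minus the array's 75th percentile) on each array, with doxycycline arrays (dox) in red and saline arrays (sal) in blue. Lines mark group means and bars the SD of 4 arrays. The 5′-side probe averages 0.64 with doxycycline and -2.15 with saline, while the groups overlap on the 3′-side probe.

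Among the relatives of Tnk1, Fes (on 1 of its 2 probes) and Abl2 were called higher and Lyn lower. Each of these calls was lost when certain single arrays were left out. Of the 45 probes, 41 were kept, meaning that at least 4 of the 8 arrays read them well above background. Of these 41, 3 were called higher (Tnk1 5′-side, Fes and Abl2) and 1 lower (Lyn), together 9.76%. Over all kept probes, 12.9% were called, 6.14% higher and 6.71% lower. Without Tnk1, 2 of 39 probes were called higher and 1 lower, or 7.69%, a share too close to that of the array, at so few probes, to read as a result about the relatives. The groups did not overlap on 4 higher and 4 lower probes of the 41 (19.5%), against 21.4% of all kept probes (9.53% higher and 11.9% lower). Over the 38 probes detected on at least 1 array of each group the median difference was 0.16, and the median size, sign set aside, was 0.42. Over all 24882 probes detected in this way these medians were -0.02 and 0.33. Leaving out each array in turn gave between 1 and 5 kinase probes called higher and between 0 and 2 called lower. The 5, without saline replicate 2, include 2 probes that no saline array detected.

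**Figure D2:**
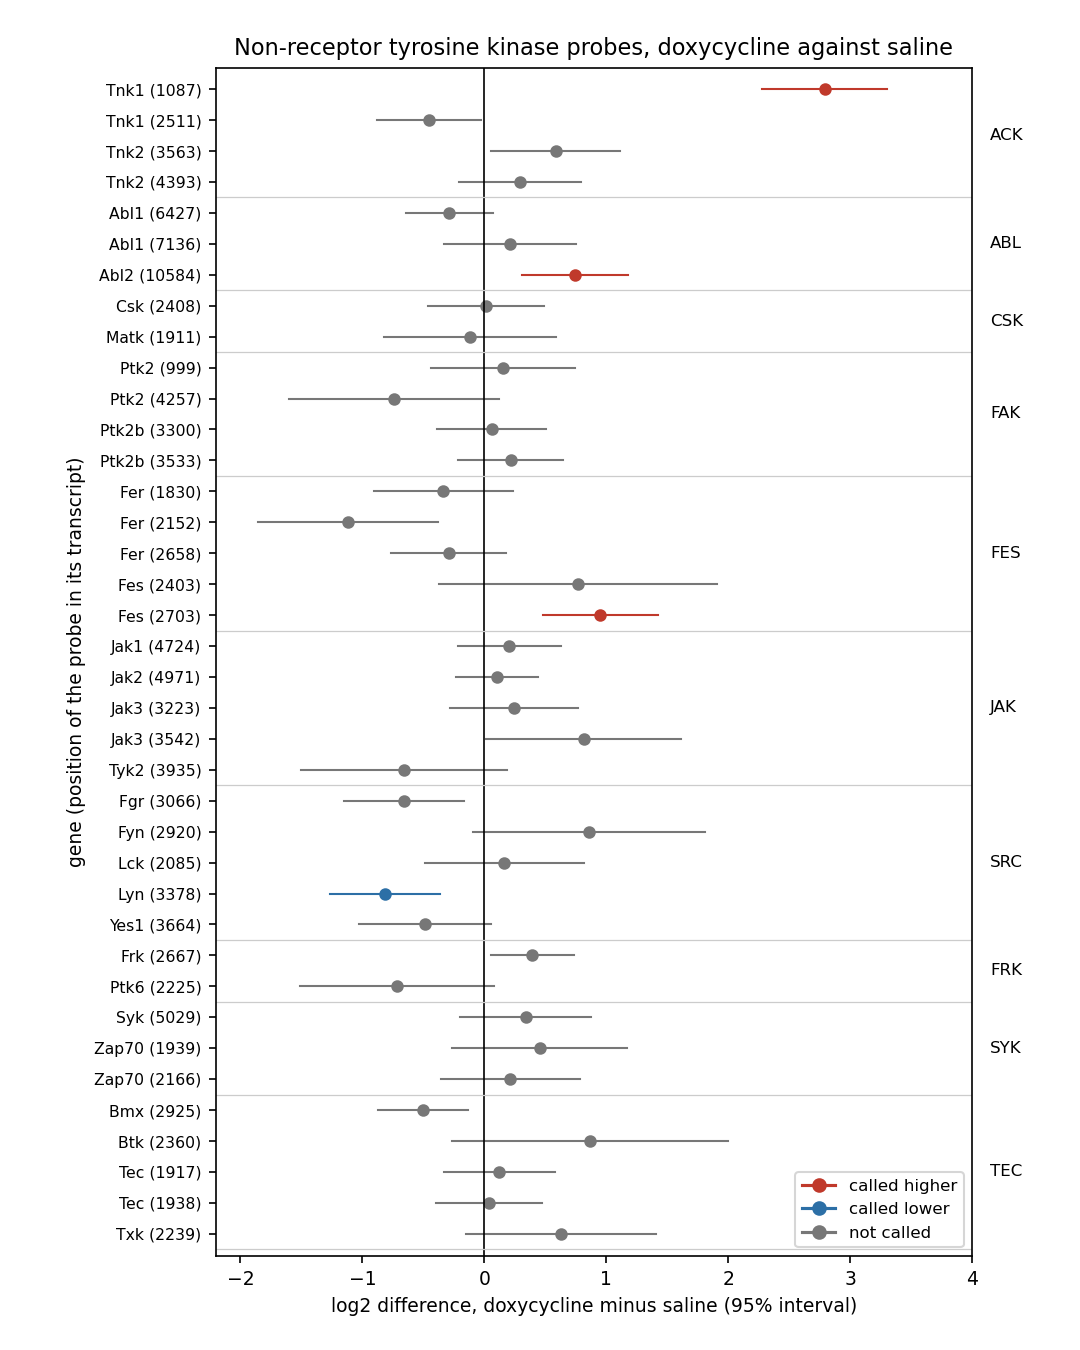
Log2 difference (doxycycline minus saline, horizontal axis) with its 95% limma interval for the 38 probes detected on at least 1 array of each group, by family; the number after each gene is the probe's position in its transcript. Red marks the 3 probes called higher, blue the 1 called lower and grey the others. The Tnk1 5′-side probe at 2.79 lies apart from the others, which run from -1.12 to 0.95.

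A detection filter of this kind treats the groups unequally here. The probes for Blk, Btk (position 1665) and Src were kept through the doxycycline arrays, since no saline array read them well above background. No difference is given for these 3 probes, because the lowest detectable saline level lies above the doxycycline mean. None of them was called. Those not kept were Bmx (position 1510) and Ptk2 (position 3494), read well above background on no array, Srms (1 doxycycline array) and Syk at position 2460 (3 doxycycline arrays). The Bmx probe shows how the undetected range differs between the groups, at -6.89 ± 0.12 with doxycycline and -4.83 ± 0.29 with saline. Srms has no other probe and so has no test.

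Tnk2, also called ACK1, is the nearest relative of Tnk1 and acts downstream of the small GTPase Cdc42. Its probe at position 3563 read -0.56, -0.67, 0.28 and 0.08 with doxycycline and -0.84, -0.67, -0.77 and -0.93 with saline. Doxycycline replicates 3 and 4 were the high ones, and the others lay near or within the saline range. The difference was 0.58 (SE 0.234, limma adjusted p = 0.128). The second Tnk2 probe differed by 0.29 (SE 0.220, limma adjusted p = 0.402), and the same 2 arrays, at 4.99 and 4.89, were its highest.

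In the ABL family, which links receptors to the actin cytoskeleton, Abl2 was called higher. Its single probe (chr1:158579621-158579680, mm9) read 0.73, 1.07, 1.13 and 1.37 with doxycycline and 0.20, 0.37, 0.11 and 0.65 with saline. The groups did not overlap, and the gene rose 1.67-fold (log2 0.74, SE 0.192, limma adjusted p = 0.0361). The call was lost without doxycycline replicate 2, 3 or 4 or saline replicate 1, 2 or 3 (limma adjusted p up to 0.106), and under median centring of the arrays (limma adjusted p = 0.0531). Abl1 was not called on either probe, with differences of -0.29 and 0.21.

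The FES family holds Fes, a kinase of myeloid and endothelial cells, and Fer, a widely expressed relative bound to cell junctions. The Fes probe at position 2703 (chr7:87522644-87522702, mm9) read 1.70, 2.05, 1.80 and 1.71 with doxycycline and 1.08, 1.26, 0.69 and 0.43 with saline. The groups did not overlap, and the probe rose 1.93-fold (log2 0.95, SE 0.209, limma adjusted p = 0.0213). The call was lost without doxycycline replicate 2 or 3 or saline replicate 3 (limma adjusted p up to 0.0671). The other Fes probe differed by 0.77 (SE 0.503, limma adjusted p = 0.334), with saline replicate 4 at -2.15 and the other saline arrays between -0.65 and 0.35. Without that array this difference was 0.28 in place of 0.77. With the mean of both probes as the unit, Fes was not called.

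Fer gave 3 negative differences and no call. At position 2152 it read -2.23, -2.22, -3.52 and -3.08 with doxycycline and -1.53, -1.98, -1.19 and -1.89 with saline. The groups did not overlap, with doxycycline replicates 3 and 4 lowest, and the difference of -1.12 missed the threshold (SE 0.327, limma adjusted p = 0.0549). It was called lower without doxycycline replicate 1 (-1.29, limma adjusted p = 0.0420) or replicate 2 (-1.29, limma adjusted p = 0.0487). The probes at positions 1830 and 2658 differed by -0.33 and -0.29, with overlapping groups. Position 2658 is counted in another transcript than 1830 and 2152. In the genome its probe starts at chr17:64488487 (mm9), between those at 64488309 and 64488631, so the 3 probes read neighbouring sites.

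SRC family kinases start signals from antigen, Fc and integrin receptors, and CSK holds them inactive by phosphorylating their tails. Lyn, a kinase of B cells and myeloid cells, was the only kinase called lower. Its probe (chr4:3718682-3718741, mm9) read -1.31, -1.20, -1.81 and -1.02 with doxycycline and -0.41, -0.48, -0.77 and -0.41 with saline. The groups did not overlap, and it fell by 0.81 on the log2 scale, or was 1.76-fold lower (SE 0.199, limma adjusted p = 0.0305). The call was lost without doxycycline replicate 3 or without any 1 of the saline replicates (limma adjusted p up to 0.0869).

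Fgr, a myeloid member of the family, gave a difference of -0.66 (SE 0.217, limma adjusted p = 0.0782). Its groups did not overlap, from -1.87 to -1.12 with doxycycline and from -1.07 to -0.37 with saline. Fyn, found in T cells and many other tissues, gave 0.86 (SE 0.422, limma adjusted p = 0.203), with doxycycline replicates 3 and 4 at -1.23 and -0.47 and all other arrays at or below -1.96. Yes1, which is active in epithelium, gave -0.49 (limma adjusted p = 0.206). Src, the founding member, was not detected on the saline arrays and has no value here. Csk itself differed by 0.01 (95% interval -0.46 to 0.49), and Matk, its relative in blood cells and neurons, by -0.12 (95% interval -0.82 to 0.59). Intervals of this width do not show that their levels are equal.

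The FRK family comprises epithelial kinases. Frk read between 1.91 and 2.15 with doxycycline and between 1.45 and 1.79 with saline, without overlap, yet the difference of 0.39 was not called (SE 0.150, limma adjusted p = 0.113). Ptk6, also named Brk and made by differentiating enterocytes, read 1.39, 1.20, 0.04 and -0.09 with doxycycline and 1.60, 1.32, 1.02 and 1.47 with saline. Doxycycline replicates 3 and 4 were the low ones, and the difference was -0.72 (SE 0.352, limma adjusted p = 0.203). Srms, its neighbour on chromosome 2, had no kept probe.

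Doxycycline replicates 3 and 4 also stood together on a Ptk2 probe of the FAK family, which acts at integrin contacts. Over all kept probes with values on every array, these arrays correlated best with each other, as did doxycycline replicates 1 and 2. Ptk2, or focal adhesion kinase, read 1.52, 1.65, 0.14 and 0.38 with doxycycline and 1.61, 1.20, 1.60 and 2.22 with saline at position 4257. The difference was -0.74 (SE 0.381, limma adjusted p = 0.221), against 0.16 for the probe at position 999. Ptk2b, the relative also called Pyk2, gave 0.06 and 0.22, with no call.

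**Figure D3:**
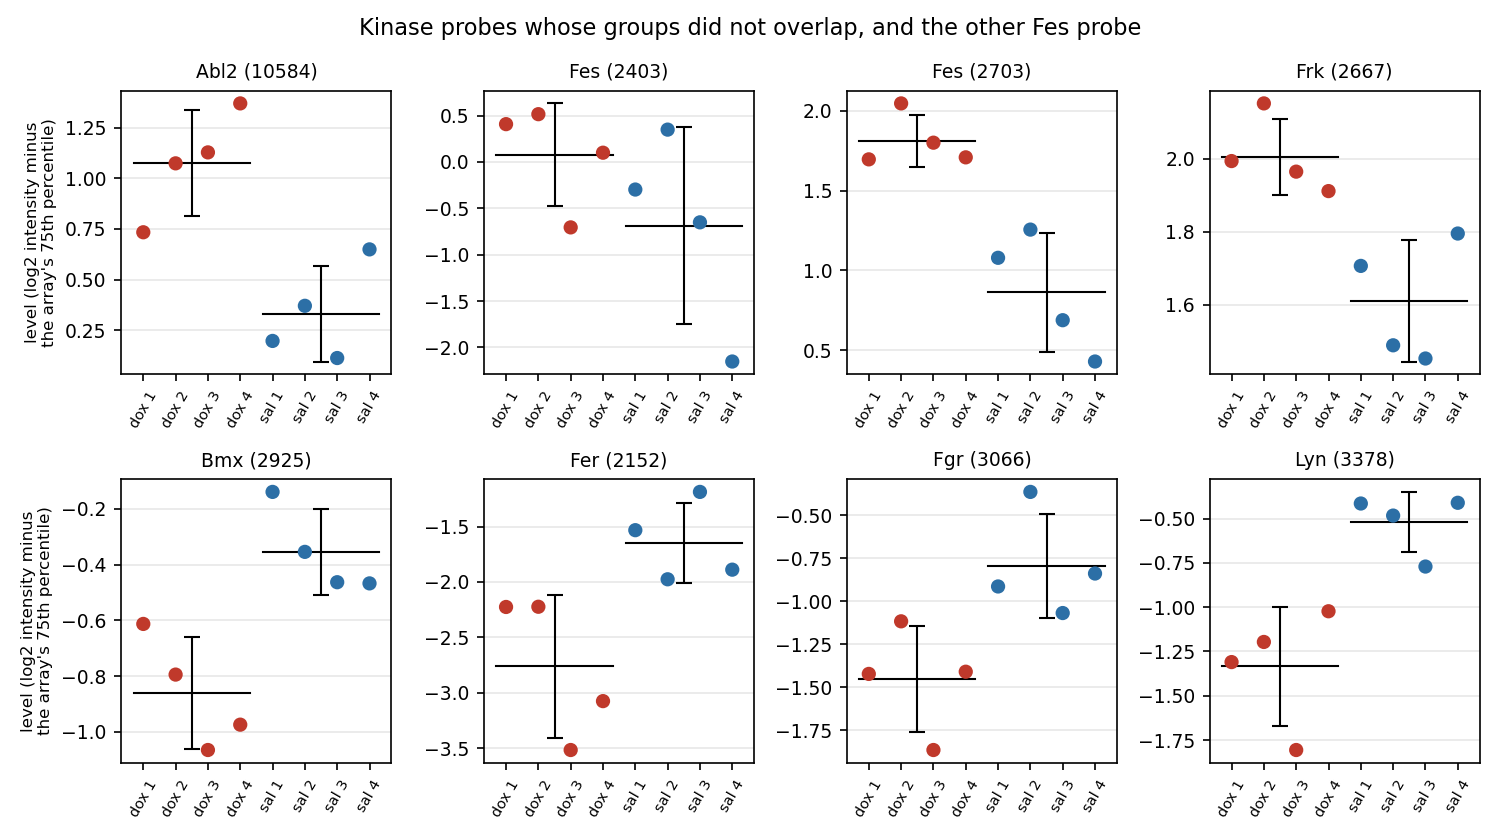
Levels by array (log2 intensity minus the array's 75th percentile; each panel has its own vertical range) for the 7 probes other than Tnk1 whose groups did not overlap and for the second Fes probe. Doxycycline arrays are red, saline arrays blue, and lines and bars give mean and SD of 4. Fes at position 2703 and Abl2 were called higher and Lyn lower; Frk, Fgr, Fer and Bmx were not called.

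Among the 10 kinases with more than 1 probe detected in both groups, only Tnk1 had probes that differed by more than 1 on the log2 scale, at 3.24. The next were Ptk2 at 0.90 and Fer at 0.83. The others ranged from 0.09 for Tec to 0.57 for Jak3. Signs differed between the probes of Tnk1, Ptk2 and Abl1. Different probes can read different transcripts or have different background, and which of these applies was not tested.

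**Figure D4:**
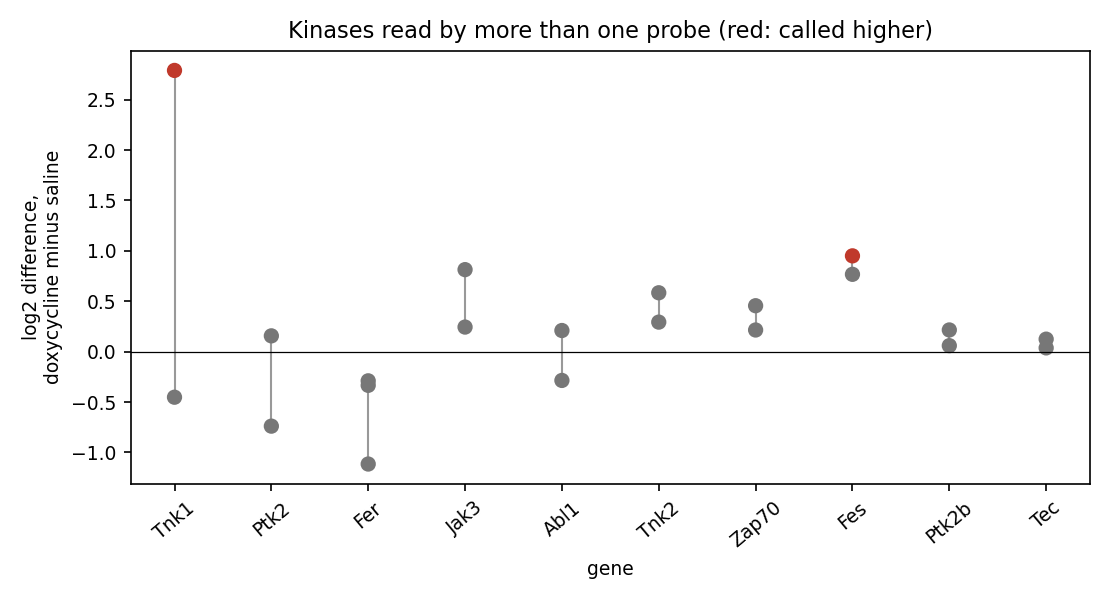
Log2 difference (doxycycline minus saline) of each probe, for the 10 kinases with more than 1 probe detected in both groups, in order of the distance between their highest and lowest probe. The distance is 3.24 for Tnk1 and at most 0.90 for the others; red points were called higher.

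JAK kinases sit on cytokine receptors and phosphorylate STAT proteins, and SOCS proteins, products of STAT target genes, inhibit them. None of the 5 JAK probes was called by limma, and 1 had an unadjusted p under 0.05. Jak1 differed by 0.21 (95% interval -0.22 to 0.63) and Jak2 by 0.10 (95% interval -0.24 to 0.44). Jak3, which pairs with the common gamma chain in lymphocytes, gave 0.24 and 0.81 on its probes (limma adjusted p = 0.511 and 0.156). Tyk2, a partner of interferon and interleukin-12 receptors, gave -0.66 (limma adjusted p = 0.267).

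The receptors that JAK kinases serve did include called genes. Of 29 tested, with each gene read by its brightest kept probe, 5 rose and 4 fell. Over all 21362 names tested in this way, 5.66% were called higher and 7.46% lower, or 13.1% together. Osmr, the oncostatin M receptor, rose 3.48-fold (limma adjusted p = 0.00164), and Il4ra, the interleukin-4 receptor chain, rose 2.45-fold (limma adjusted p = 0.00263). Il6ra rose 1.95-fold (limma adjusted p = 0.0147), a call lost without saline replicate 3. Ifngr2, a chain of the interferon-gamma receptor, fell by 1.16 on the log2 scale (limma adjusted p = 0.00334). The list's median was 0.25, and leaving out each array in turn left 2 to 6 called higher and 1 to 4 called lower; the fewest higher calls came without saline replicate 3.

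Phosphatases, ubiquitin ligases and other proteins that restrain these kinases were read next. Of 25 tested, 7 rose and 2 fell, with a median difference of 0.42, against 0.02 over all names. The share called over all names was 5.66% higher and 7.46% lower. Socs1, an inhibitor of JAK kinases, rose 6.18-fold from 2.15 ± 0.58 to 4.78 ± 0.25 (SD, n = 4 each, limma adjusted p = 0.00108). Cish, another SOCS protein, rose 2.23-fold (limma adjusted p = 0.00634). Ptpn22, the lymphocyte phosphatase that acts on SRC and SYK kinases, rose 2.74-fold (limma adjusted p = 0.00479), and Ptpn12, which dephosphorylates adhesion proteins, rose 2.06-fold (limma adjusted p = 0.00372). The mean of the list relative to the saline mean ran from 0.37 to 0.72 on the doxycycline arrays and from -0.20 to 0.27 on the saline arrays. Leaving out each array in turn left 4 to 9 called higher and 0 to 2 called lower, with the fewest higher calls without doxycycline replicate 3 or 4 or saline replicate 1 or 3.

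SYK and TEC kinases carry signals from B cell, T cell and Fc receptors, and several of them varied widely among the saline arrays. Btk, which is essential for B cells, read -0.20, 0.54, -0.01 and 0.92 with doxycycline and -1.07, 1.06, -1.09 and -1.11 with saline at position 2360. Saline replicate 2 was the highest of all 8 arrays, and the other saline arrays were the lowest. The difference was 0.86 (SE 0.501, limma adjusted p = 0.275). Blk, the B lymphoid member of the SRC family, was well above background on the doxycycline arrays only, at -3.66, -3.56, -3.48 and -2.18, with replicate 4 the highest of these. Saline replicate 2 read -2.45, above doxycycline replicates 1 to 3, although it did not count as detected.

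Without saline replicate 2, Btk at position 2360 was called higher, by 1.40 (limma adjusted p = 0.0185). In that fit 6.87% of all kept probes were called higher. As saline replicate 2 was the highest saline array on this Btk probe, leaving it out can only raise the difference. The mean of 8 B cell markers relative to the saline mean was 1.08, 1.69, 1.26 and 2.38 with doxycycline and -0.57, 2.66, -0.86 and -1.23 with saline, so the same array was highest there. Leaving out saline replicate 2 can only raise the difference of this mean too. None of the 8 was called by limma with all arrays (2 had an unadjusted p under 0.05), and 6 were called higher without saline replicate 2. Cd79b differed by 1.99 with all arrays and by 2.85 without that one, and Ms4a1 by 2.48 and 3.85. In whole tissue, fewer cells of a type and less RNA per cell cannot be told apart, and the part of cell numbers in the kinase values was not tested.

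The kinases of T cells were not called. Lck read 2.17 to 3.18 with doxycycline and 2.10 to 3.11 with saline, a difference of 0.16 (limma adjusted p = 0.736). Zap70 gave 0.46 and 0.21, Txk 0.63 and Syk, which B cells and myeloid cells use, 0.34, none of them called (limma adjusted p from 0.249 to 0.602). On all of these probes saline replicate 2 was the highest saline array, so leaving it out can only raise the difference. Without that array, Lck differed by 0.38, Zap70 by 0.71 and 0.37, Txk by 0.90 and Syk by 0.53. None was called (limma adjusted p from 0.0862 to 0.351). The mean of 8 T cell markers ran from -0.05 to 0.94 with doxycycline and from -0.50 to 0.57 with saline; limma called none, and 1 had an unadjusted p under 0.05. Tec, next to Txk on chromosome 5, gave 0.12 and 0.04. Bmx, a TEC kinase of endothelium and myeloid cells, read -0.61, -0.79, -1.07 and -0.97 with doxycycline and -0.14, -0.35, -0.46 and -0.47 with saline at position 2925. These groups did not overlap, and the difference was -0.51 (SE 0.163, limma adjusted p = 0.0730).

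**Figure D5:**
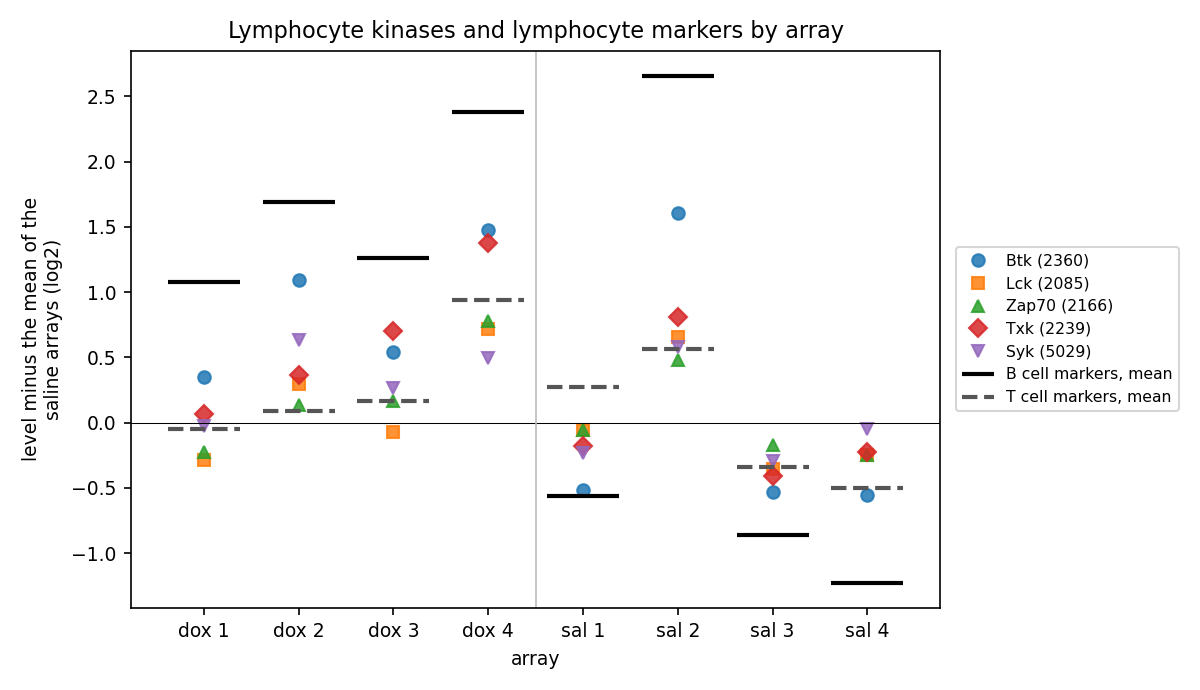
Level minus the mean of the saline arrays (log2, vertical axis) on each array for Btk, Lck, Zap70, Txk and Syk (symbols) and for the means of the B cell markers (solid bars) and T cell markers (dashed bars). Saline replicate 2 and doxycycline replicate 4 are the high arrays for both marker lists, at 2.66 and 2.38 for B cells. The 5 kinases were put together after their values were seen.

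The receptor chains and adaptors through which SRC, SYK and TEC kinases signal had 3 called higher and 0 lower of 27 tested, with a median of 0.37. Over all names the median was 0.02, with 5.66% called higher and 7.46% lower, or 13.1% together. The share called higher lies above that of all names, and the share called in either direction below it. At so few genes the count is not read as a result about the pathway. Fcgr3, an Fc receptor, rose 2.77-fold (limma adjusted p = 0.0196), Blnk, the B cell adaptor bound by Syk and Btk, rose 2.02-fold (limma adjusted p = 0.0340), and Dapp1, another B cell adaptor, rose 2.09-fold (limma adjusted p = 0.0354). Sla, an adaptor that lowers receptor signals, differed by 1.17 without a call. At an unadjusted p under 0.05, limma gave 5 higher and 0 lower. Leaving out each array in turn left 0 to 8 called, with 0 without doxycycline replicate 3 or 4 or saline replicate 3. Blnk and Dapp1 were also lost without saline replicate 1 or 4 and under a common floor, and Blnk without doxycycline replicate 2.

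Adaptors and substrates in adhesion and growth factor signalling were called higher for 2 of 30 tested, with 0 lower (2 lower at an unadjusted p under 0.05 in limma) and a median of 0.11. Over all names, 5.66% were called higher and 7.46% lower, or 13.1% together, and this count too is not read as a result about the pathway. Arhgap35, a substrate of SRC kinases, rose 1.47-fold (limma adjusted p = 0.0305). It was not called under median centring or when saline replicate 1, 2 or 3 or any doxycycline replicate was left out. The other was the adaptor Gab2, which no saline array read well above background, and its call was lost with normexp background correction (limma adjusted p = 0.996). Leaving out an array gave 0 to 3 called higher, with 0 without doxycycline replicate 3 or 4 or saline replicate 1. Wasl and Crkl differed by 0.48 and 0.47 and were not called. Of 19 tested genes for proteins linked to TNK1, 0 were called by limma and 2 had an unadjusted p under 0.05. Among them Mark2 differed by 0.32, Plcg1 by 0.42 and Stat3 by 0.24.

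Receptor tyrosine kinases, the other branch of the tyrosine kinases, had 6 called higher and 6 lower of 47 tested, with a median of -0.02. Over all names, 5.66% were called higher and 7.46% lower. The 6 higher include Musk, the receptor of the neuromuscular junction, which no saline array detected. Tie1, an endothelial receptor, rose 3.44-fold (limma adjusted p = 0.00243) and Fgfr4, the receptor for the ileal hormone FGF15, rose 2.90-fold (limma adjusted p = 0.00249). Epha1, an epithelial ephrin receptor, fell by 1.18 on the log2 scale (limma adjusted p = 0.00263), and Fgfr3 fell by 1.11 (limma adjusted p = 0.00447). Leaving out an array gave 2 to 6 called higher and 4 to 6 lower, with the fewest higher calls without doxycycline replicate 3 or saline replicate 3.

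Some markers of the cells that hold these kinases were called. Over all names tested by their brightest probe, 5.66% were called higher and 7.46% lower. At 5 to 8 genes a list, the counts are not read as a result about a cell type. Of 7 macrophage markers tested, 3 were called higher and 1 lower. Mrc1 rose 2.06-fold and C1qb 2.26-fold, whereas Adgre1 fell by 0.95 on the log2 scale; their list mean ran from 0.31 to 0.97 with doxycycline and from -0.60 to 0.30 with saline. Of 5 neutrophil markers, 2 were called higher, S100a9 and S100a8. No saline array read S100a8 well above background, so its probe was kept through the doxycycline arrays. Of 7 cytotoxic and natural killer cell markers, 2 were called lower (Nkg7 by -1.26 and Gzmb by -0.75), as were 2 of 8 epithelial markers (Cdx2 by -1.14 and Krt19 by -0.61) and 2 of 5 tuft cell markers (Dclk1 and Trpm5). The cytotoxic list mean ran from -0.52 to -0.27 with doxycycline and from -0.25 to 0.21 with saline. For the epithelial list it ran from -0.47 to -0.15 and from -0.11 to 0.07. These ranges did not overlap, nor did those of the macrophage list, whereas those of the tuft cell list did. Of 6 plasma cell markers, Prdm1 was called higher, and Tnfrsf17 and Jchain lower. In the other lists, Ccr7 among 5 dendritic cell, Tie1 among 7 endothelial and Pdgfra among 6 fibroblast markers tested were called higher. Of 5 mast cell markers, Kit was called lower. The list medians were 0.61, 0.41, -0.07 and 0.38 in that order. Cldn5 among endothelial (-0.69) and Col3a1 among fibroblast markers (-0.92) went the other way without a call. So did Mcpt2 and Mcpt4 among mast cell markers (1.29 and 0.79). Limma called none of 8 ileal enterocyte, 6 smooth muscle or 8 enteric neuron and glia markers, of which 2, 0 and 1 had an unadjusted p under 0.05. Among these calls, those of Adgre1, C1qb, S100a8, S100a9, Gzmb, Krt19, Dclk1, Trpm5, Prdm1, Jchain, Ccr7 and Pdgfra were each lost without 1 array or more. Under a common floor, S100a8, S100a9, C1qb, Jchain and Ccr7 were not called. S100a8 was also lost with normexp background correction (limma adjusted p = 0.0789). The part of cell composition in the values of Fes, Lyn, Fgr or Frk was not tested.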

How the data were processed

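Total RNA from the ileum was measured on 8 Agilent mouse arrays with 1 colour, from 200 ng of RNA each, per the labels. The deposited scanner output gives each spot's processed intensity (linear) and flags for detection and outliers. Per the file headers, Agilent Feature Extraction 10.7.3.1 subtracted the background and detrended the signal. The deposited value table holds log2 values. In every column, 100% of probes lay within 0.01 of the scanner output's log2 intensity after a constant was taken off, so scale, centring and direction are known; column medians run from -3.97 to -3.70, and the table served as an alternative.

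Control and outlier-flagged spots were left out and spots of a probe averaged. No spot of the 45 probes was flagged or saturated. From the log2 intensity of each array its 75th percentile was subtracted. Probes well above background on at least 4 of 8 arrays (28626) were fitted with limma 3.58.1 in R 4.3.3 (lmFit, eBayes, two-sided, no covariate). The fit was tested on simulated data. Single values were compared by exact two-sided permutation. Where no array of a group detected a probe, only a bound exists; for the 3 such kinase probes it was under 1-fold. Pathway and marker lists take the brightest kept probe of a name. Their counts, medians and means include probes that no saline array detected.

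The text names all 30 kinases, and up to 4 genes of each pathway list and 3 of each marker list by smallest p, or those called. C1qc is called and not given a value. Some genes that this rule takes are not reported here. The kinases and lists were chosen with earlier results of these data known. Genomic positions of probes are mm9. Transcript positions of a gene's probes can refer to different transcripts, as for Fer and Tec, and then do not give their order. Of the 45 probes, 41 have a transcript listed by RefSeq under GRCm38.p6, all with the same symbol; that table was used for names and neighbours. Fyb1, Sh2d6 and Ly6g matched no array name. Alternatives were background, scaling, the deposited table, filters, a common floor, the unit of test, array weights, a trended prior, the replicate block and left-out arrays. Counts within lists without each array were added after the data were seen.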

Additional observations from a re-analysis of the deposited data

Results flagged for a closer look

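Of 82 groups of 4 arrays examined over the kept kinase probes, 3 held an array far from the others of its group, and chance flags about 1 in 20 such groups. Blk read -2.18 on doxycycline replicate 4, against -3.66 to -3.48 on the other doxycycline arrays. Btk at position 2360 read 1.06 on saline replicate 2, against -1.11 to -1.07 on the other saline arrays. On the same arrays the B cell marker mean was at its highest within each group, at 2.38 on doxycycline replicate 4 and 2.66 on saline replicate 2. The Tnk1 5′-side probe read -2.74 on saline replicate 4, against -2.02 to -1.91 on the other saline arrays, and without that array the difference between the groups was 2.59.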

How the results depend on the processing

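Of the 41 kept kinase probes, 23 kept their direction and their side of the threshold in all settings that gave them a value (up to 19). The Tnk1 5′-side probe was called in all 18 of its settings, with differences from 1.98 to 2.89. The 3′-side probe stayed negative and was called with array weights only (-0.61, limma adjusted p = 0.0230); leaving out each array gave -0.57 to -0.37. The difference between the Tnk1 probes ran from 2.31 to 3.44. It was 3.13 without saline replicates 2 and 4 (p = 0.0667) and 3.24 with the replicate block (p = 0.125), each the smallest p that the exact test allows there. Leaving out each array gave 3.15 to 3.44.

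The kinase probes called higher, 3 in the report, were 6 with array weights (1 of them a probe that no saline array detected). With these weights calls over all probes also rose to 27.4%. Without saline replicates 2 and 4, 6 kinase probes were called higher (2 of them probes that no saline array detected). Without each array in turn, 1 to 5 were. Those called lower, 1 in the report, were 4 with normexp background (16.5% of all probes called in either direction), 5 with no filter (44.3%), which include the Bmx probe that no array detected, 3 among probes well above background on all arrays, 2 with a common floor, 4 with array weights, 0 without saline replicates 2 and 4, and 0 to 2 without each array. With normexp the median of all kept probes moved from 0.04 to -0.07, and with no filter to -0.49. Fer (position 2152) and Bmx were called lower with normexp, with no filter, with the all-array filter and with array weights, Bmx also with the floor, Fgr with the first 2 of these settings, and Frk higher with the floor or weights. The cause was not tested.

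Probes whose sign turned were not called: Src, not detected on saline arrays, with normexp (-0.052) and Tec at position 1938 with normexp (-0.024), array weights (-0.021) and without saline replicates 2 and 4 (-0.043). Without each array in turn, Csk ran from -0.090 to 0.14, Lck from -0.021 to 0.38, Matk from -0.40 to 0.12, Ptk2b (position 3300) from -0.043 to 0.18 and Tec from -0.095 to 0.12. Among the markers, Zbtb46, which no saline array detected, turned with normexp (-2.2e-04), and Snap25 ranged from -0.26 to 0.090 without each array.

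Arrays with the same replicate number showed little tendency to deviate together (correlations of -0.06 to 0.10). With so few arrays this cannot exclude a pairing, and the replicate number is also the column on the slide. With the replicate block, Abl2 was no longer called (limma adjusted p = 0.0565), and calls over all kept probes fell to 1030 higher and 964 lower. Low signal limits Blk, Src, Btk (position 1665), Srms and the undetected probes.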
